A study of Mus musculus with 4 samples.

Results

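Cytosolic ribosomal protein genes, which encode the proteins of the large and small subunits of the ribosome outside mitochondria, were compared in SG placodes derived from PSCs and in SMGs of E12.5 mouse embryos. A gene was included when its symbol began with Rpl or Rps and a digit, or was Rpsa, Rplp0, Rplp1 or Rplp2. The kinase genes beginning with Rps6k and symbols containing -ps were left out. In total, 86 of the 24771 listed features met this rule. Of these, 77 are standard subunit genes (46 of the large and 31 of the small subunit), and the other 9 are paralogs, retrocopies or partners named after a subunit.
RNA was sequenced from 2 samples of each group. The placodes (day 10 aggregates) came from 1 line of mouse embryonic stem cells, 129w2, of which 3000 cells were placed in each well with 2% Matrigel added on day 1. They received BMP4 at 2 ng/ml on day 3, then bFGF at 25 ng/ml with RA at 1 μM on day 4, and from day 6 on FGF10 at a concentration of 200 ng/ml. The SMGs (submandibular glands) were taken from mouse embryos at E12.5, and their strain, dissection and pooling are not given in the sources used here. Nothing says that the 2 samples of a group came from separate cultures or litters, so the p-values measure only the spread between these samples, which may be technical. No date or batch is named, so a batch that followed the groups cannot be told apart from them.

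Each ribosome carries a single copy of nearly every one of these proteins, arranged on ribosomal RNA, and the genes are transcribed at high rates in growing cells. The mRNAs of vertebrates typically open with a C followed by a run of pyrimidines, the TOP tract (terminal oligopyrimidine), through which mTOR and the RNA-binding protein Larp1 control their translation. Mammalian genomes also hold many processed copies of ribosomal protein genes, made by reverse transcription of the mRNA, which makes the assignment of reads to a single locus difficult.

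Expression was given as FPKM, in which the fragments mapped to a gene are divided by its length and by the depth of the sample. FPKM values summed to between 361963 and 384773 per sample. The smallest steps of the values of single-transcript genes gave relative depths of the samples within 1.20-fold of each other, but under 14% of low values were whole multiples of such a step, so counts were not recovered and no counting intervals are given. Differences were tested with limma on log2(FPKM + 1) over the 13193 features with a mean FPKM of at least 1, with Benjamini-Hochberg adjustment, and a feature was called at an adjusted p below 0.05. Log2 fold changes are placodes over SMGs on this scale, which understates the change of low genes.
Markers of several cell types differed between the groups. Of 8 salivary epithelium markers, 4 reached 1 FPKM throughout the placodes and 8 throughout the SMGs, with sums of 60.2 to 63.1 and 554 to 575 FPKM. Krt5, Krt14 and Krt15, which define the basal gland epithelium, were at 0 in the placodes. The 7 neuronal markers were all detected in both groups and summed to 977 to 1014 FPKM in the placodes and to 83.1 to 92.8 in the SMGs, while the 6 mesenchymal markers summed to 184 to 190 and to 1751 to 1795. Of 9 erythroid markers, 0 reached this level throughout the placodes and 8 throughout the SMGs, with sums of 0.0258 to 0.255 and 3056 to 3061 FPKM. Of 4 endothelial markers, 1 reached 1 FPKM throughout the placodes (sums of 9.11 to 9.72 FPKM) and 4 throughout the SMGs (88.2 to 94.2). For 4 leukocyte markers these numbers were 1 (2.45 to 2.95) and 3 (9.10 to 10.4). The part of cell makeup in the values that follow was not tested, and in such bulk samples fewer cells of a type and less RNA per cell cannot be told apart.

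Ribosomal protein genes took a similar share of the FPKM in both groups. Together they made up 9.68% and 9.10% of all FPKM in placode samples 1 and 2, and 8.75% and 9.55% in SMG samples 1 and 2. The groups overlapped, with means of 9.39% ± 0.409 (SD, n = 2) and 9.15% ± 0.561 (SD, n = 2). An exact two-sided permutation test of this difference of 0.24 percentage points gave p = 0.667, and 2 samples against 2 cannot give a p below 0.333. Large subunit genes held 5.13% and 4.91% in the placodes and 4.83% and 5.41% in the SMGs. Small subunit genes held 4.43% and 4.10% against 3.83% and 3.96%, so that both placode samples were above both SMG samples (exact permutation p = 0.333). These shares leave out the listed copies described below, among them 2 of Rps18 that were higher in the SMGs. With the listed copies added, the ribosomal protein genes held 9.83% and 9.24% in the placodes and 9.03% and 9.93% in the SMGs. The small subunit share with copies was not computed. Mitochondrially encoded genes, which share the same total, held 5.93% and 5.88% in the placodes and 10.7% and 8.07% in the SMGs, and hemoglobin genes held 0% and 1.62e-05% against 0.793% and 0.815%. Relative to the summed FPKM of all features that are neither mitochondrially encoded, hemoglobin nor ribosomal protein genes, the ribosomal protein genes were lower in the placodes by 0.25 percentage points, so the direction of the difference depended on the denominator.

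The genes were among the most abundant of the table. Of the 100 features with the highest mean FPKM, 38 were ribosomal protein genes, and 68 of the 77 standard genes reached 100 FPKM in all 4 samples. Rplp1, which encodes an acidic protein of the P stalk, had the highest mean of the standard genes, with 836 and 782 FPKM in the placodes and 1205 and 1223 in the SMGs. Rps24, a small subunit gene, came next with 1050 and 1037 FPKM against 836 and 883. At the other end, Rpl29 had 2.27 and 3.09 FPKM in the placodes and 3.10 and 4.07 in the SMGs, and Rpl34 had 6.43 and 6.45 against 10.0 and 12.8. Rpl29 and Rpl34, both of the large subunit, were thus listed below all other standard genes. Rpl29 has 63 annotated copies with near-identical coding sequence and Rpl34 has 10. Across the 83 tested genes, the log2 group means of placodes and SMGs correlated with r = 0.91, against r = 0.72 across all tested features. These correlations are across genes of the same 4 libraries and describe only how alike the order of levels was.

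**Figure D1:**
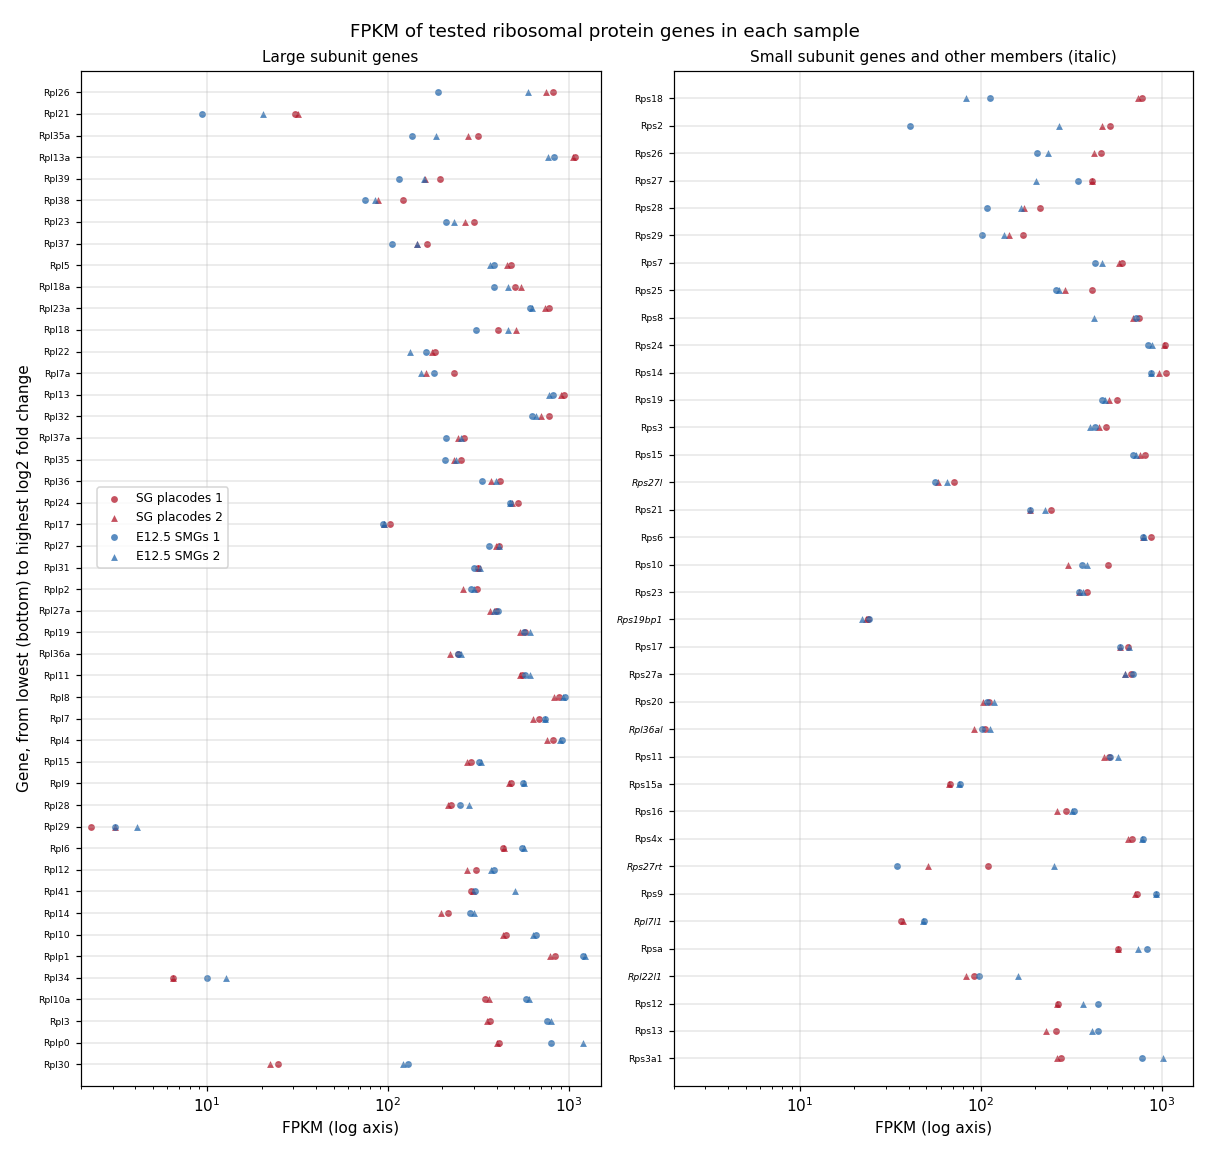
FPKM on a log axis of the tested ribosomal protein genes, without 1 that is not reported here, in placode samples 1 and 2 (red) and SMG samples 1 and 2 (blue), with large subunit genes on the left and small subunit genes and other members (italic) on the right, ordered by log2 fold change. Most genes lie between 100 and 1223 FPKM with the 4 samples close together, while Rps18, Rps2 and Rpl26 at the top and Rpl30 and Rps3a1 at the bottom are spread apart.

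The changes of most ribosomal protein genes were small beside those of all features, which is described here without a test. Of the 86 genes, 83 passed the minimum of 1 FPKM and were tested, and 39 of them (47.0%) were called, against 76.2% of all tested features. Higher in the placodes were 16 genes, where 35.7% of all features were called, and lower were 23, where 40.4% of all features were called. Equalising the summed FPKM of the samples (TPM) gave 26 genes higher and 21 lower, and median-ratio scaling 25 and 20, so the balance of directions depended on the scaling. The median log2 fold change was 0.03, beside -0.05 over all tested features. The median absolute log2 fold change was 0.28 for the ribosomal protein genes, 0.55 for all tested features and 0.41 for the 488 features with a mean of at least 100 FPKM. Of the 83 genes, 64 lay within 0.5 of 0 on the log2 scale. The samples of the groups did not overlap for 60 genes (29 with the placodes above, 31 below), while 88.4% of all tested features did not overlap.
Both subunits contained genes in each direction. Among the 46 large subunit genes, 9 were called higher and 14 lower, with a median log2 fold change of -0.02. Of the 31 small subunit genes, 7 were called higher and 8 lower, with a median of 0.06. A fold of at least 2 was reached by 4 called genes that were higher (Rps18, Rps2, Rpl21 and Rps26), where 14.1% of all features reached it, and by 4 that were lower (Rpl30, Rps3a1, Rplp0 and Rpl3), where 15.2% did. The calls rested on few samples. Many calls were not made again when 1 sample was left out, and over all tested features fewer calls were made too. The shares of calls made again were not compared. Without placode sample 1, the median log2 fold change of the tested ribosomal protein genes was -0.07, beside -0.04 over all tested features. Without placode sample 2 these medians were 0.09 and -0.06. Over the fits that left out 1 sample, Rps7, for example, ranged from 0.34 to 0.46, Rps18 from 2.74 to 3.18 and Rps26 from 0.90 to 1.11.

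**Figure D2:**
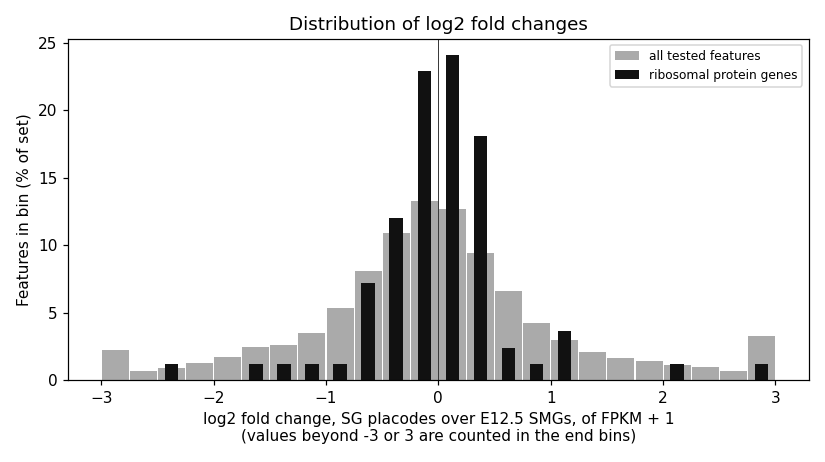
Percent of the 83 tested ribosomal protein genes (black) and of all 13193 tested features (grey) in bins of log2 fold change, placodes over SMGs, of FPKM + 1. The black bars gather around 0, with 64 of 83 genes within 0.5 of it, and a few genes stand alone towards both ends.

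The ribosomal protein gene with the largest change was Rps18, which encodes a protein of the head of the small subunit. Rps18 (ENSMUSG00000008668) lies at chr17:33951999-33956001 of GRCm38 on the minus strand. It had 781 and 737 FPKM in the placodes and 113 and 82.8 in the SMGs. Both placode samples were several times above both SMG samples, and the log2 fold change was 2.96 (SE 0.14, limma adjusted p = 6.00e-06).
A pair of single-exon genes elsewhere carry almost the same coding sequence and were listed with the opposite pattern. Gm10260, at chr13:97760072-97760632 on the minus strand, had 3.71 and 2.76 FPKM in the placodes and 462 and 562 in the SMGs. Gm11361, at chr13:28257528-28258134 on the plus strand, had 7.00 and 6.05 FPKM against 115 and 123. Both are annotated as protein coding. The coding sequence of Rps18 is 459 bases long. Counted from the A of its start codon, with the base of Rps18 first, Gm10260 differs by T186C, A337C, G371A and G431A, and Gm11361 by T11A, A171C and A337C. The coding strand of positions 312 to 431, which hold 3 of these positions, is shown because these bases differ between the 3 loci in the GRCm38 reference. Rps18 has 13 annotated copies, and those not listed were not compared, so they may carry the same bases. The bases of the samples themselves were not seen, and the strain of the SMGs is not given. The capitals mark the positions at which any of the 3 sequences differ.
Rps18: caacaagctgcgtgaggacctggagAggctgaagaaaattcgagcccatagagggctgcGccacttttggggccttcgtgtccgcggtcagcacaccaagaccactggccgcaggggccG
Gm10260: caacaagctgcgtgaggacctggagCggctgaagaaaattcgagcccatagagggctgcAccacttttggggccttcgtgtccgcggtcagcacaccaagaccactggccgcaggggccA
Gm11361: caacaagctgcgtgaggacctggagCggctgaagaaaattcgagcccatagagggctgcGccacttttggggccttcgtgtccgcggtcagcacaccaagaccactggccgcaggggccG
Read side by side, the 3 sequences share all other bases of the stretch, and Gm11361 differs from Rps18 in it only at A337C. The summed FPKM of the 3 loci was 792 and 746 in the placodes and 689 and 767 in the SMGs. These sums overlapped between the groups, where Rps18 alone did not. The log2 fold change of the sum was 0.08 (SE 0.08, limma adjusted p = 0.393), an alternative chosen after the data were seen. Under the other 16 alternatives, Rps18 alone kept an adjusted p of between 2.45e-07 and 0.00433. How much of the FPKM at these loci belongs to Rps18 cannot be told from these values. The amount listed under its copies sets no bound, since the other annotated copies are not listed. How the authors assigned reads that match several loci is not given in the sources used here, and the part of that assignment was not tested.

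A second pair of loci shared its coding sequence completely. Rps27, the standard small subunit gene at chr3:90212522-90213651, and Rps27rt, a single-exon gene at chr9:114982366-114982739, have coding sequences of 255 bases with 0 differences. Their annotated starts in RefSeq differ upstream, and 30 bases around each start, 10 before it and 20 from it on, are shown with the TOP tract in capitals (transcript strand, GRCm38.p6).
Rps27 (chr3:90213629-90213658, minus strand): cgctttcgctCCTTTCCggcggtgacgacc
Rps27rt (chr9:114982720-114982749, minus strand): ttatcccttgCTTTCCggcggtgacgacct
From the end of the tract on, the bases shown are shared by both. Rps27 had 414 and 411 FPKM in the placodes and 345 and 203 in the SMGs. Rps27rt had 110 and 51.2 FPKM against 34.3 and 253. In the SMGs the sample with more of the copy had less of the standard gene, while Rps27 was nearly equal in both placode samples. Rps27 alone was called higher (log2 fold change 0.64, adjusted p = 0.0398), but not without placode sample 1 (0.63) or 2 (0.64), and it was 1.02 and 0.26 without SMG samples 1 and 2. Rps27rt alone was not called (-0.32, adjusted p = 0.757). Their sum was 524 and 462 FPKM in the placodes and 379 and 456 in the SMGs, with a log2 fold change of 0.24 (limma adjusted p = 0.0790, where Rps27 alone ranged from 0.00103 to 0.239 over the other alternatives).

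Such copies were common. By alignment of each coding sequence to all annotated transcripts, 77 of the 86 genes had at least 1 copy among other annotated genes. A copy was a match with 90% identity over 80% of the coding sequence, and the standard genes had a median of 9. Some counted genes overlap the member itself, namely Gm45713 for Rpl13a, RPS10-NUDT3 for Rps10 and Gm49383 for Rpl36al. Others are genes with a longer span that hold a match, such as Wdr89 for Rplp2. Only 20 genes had a copy that was itself listed in the table, and for Rps27 and Rps27rt that copy is the other of the pair. The remaining 18 genes had 23 listed copies, all of them outside the list of ribosomal protein genes, which together made up 0.147% and 0.141% of all FPKM in the placodes and 0.276% and 0.385% in the SMGs. Rps12, a small subunit gene, had 266 and 262 FPKM in the placodes and 445 and 366 in the SMGs. Its listed copy Rps12-ps3 had 333 and 302 FPKM against 336 and 540, so that the copy was about as abundant as the gene. Alone and summed with this copy, Rps12 was called lower, by -0.61 and -0.53 on the log2 scale. Rpl21, with the largest number of annotated copies (77), had 30.6 and 31.8 FPKM in the placodes and 9.34 and 20.3 in the SMGs. Its listed copy BC004004 had 12.1 and 9.28 FPKM against 12.8 and 12.9. BC004004 spans chr17:29268788-29314065, so its FPKM need not be that of the matching bases alone. The log2 fold change of Rpl21 was 1.12 (adjusted p = 0.0155) and that of the sum 0.61. Without SMG sample 1 it was 0.60 and without SMG sample 2 it was 1.64, and it was not called without placode sample 1 (1.14) or 2 (1.09).
The number of copies was also compared with the calls. Of all tested features, 76.2% were called and 88.4% did not overlap between the groups. Of 5 standard genes without an annotated copy, 0 were called in the limma fit, and 2 had an unadjusted p below 0.05. All 5 did not overlap between the groups. Of 36 with 1 to 9 copies, 19 were called, 3 of them with a fold of at least 2. Of 36 with 10 or more copies, 19 were called, 5 of them with such a fold. The median absolute log2 fold change was 0.18, 0.28 and 0.31 in these sets, a difference that was not tested. Whether or not it was counted as a copy, another gene on the same strand shares exon bases with 28 genes. These are mostly small nucleolar RNA genes inside them, and 19 genes share exon bases with a gene on the opposite strand. Of the 44 tested genes that share none, 8 were called higher and 11 lower (43.2% called), where 35.7% and 40.4% of all tested features were.

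**Figure D3:**
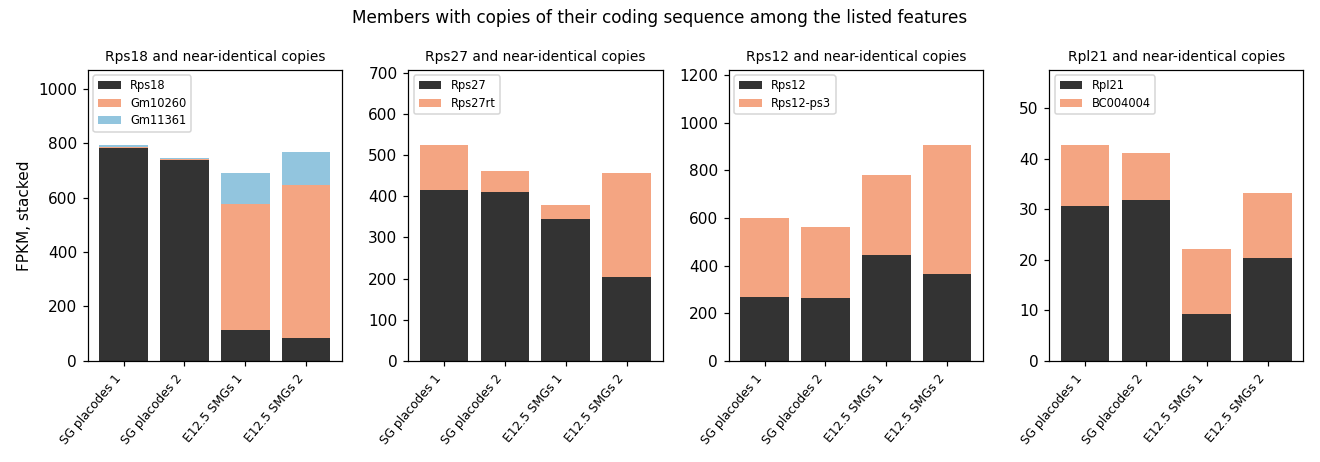
FPKM stacked over a ribosomal protein gene (dark) and its listed near-identical copies (coloured) in each of the 4 samples, for Rps18, Rps27, Rps12 and Rpl21. For Rpl21 the copy is BC004004, a gene with a longer span that holds the match. The dark part of Rps18 is 781 and 737 in the placodes and 113 and 82.8 in the SMGs, while the whole bars lie between 689 and 792.

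Among the called genes with a fold of at least 2, apart from Rps18 and Rpl21, Rps2 alone had a listed copy, Gm8225. Gm8225 had 2.78 and 21.9 FPKM in the placodes and 0 and 4.32 in the SMGs. Copies that are annotated but mostly not listed are a limit for these genes too. Annotated copies numbered 43 for Rps2, 21 for Rpl3, 7 for Rps3a1, 5 for Rplp0 and 3 for Rps26. Rpl30, a large subunit gene at chr15:34440505-34443640, had 24.6 and 22.2 FPKM in the placodes and 129 and 121 in the SMGs. It was the lowest of the list in the placodes relative to the SMGs, with a log2 fold change of -2.37 (SE 0.07, adjusted p = 8.00e-07), and it ranged from -2.44 to -2.30 when a sample was left out. Rpl30 has 17 annotated copies, none of them listed, and its exons overlap D730044K07Rik on the opposite strand. The strandedness of the libraries is not given in the sources used here.
Rps3a1, whose protein lies near the mRNA exit of the small subunit, had 278 and 265 FPKM in the placodes and 778 and 1019 in the SMGs (log2 fold change -1.71, adjusted p = 4.31e-05). Rpl3, whose protein reaches towards the peptidyl transferase centre, had 368 and 355 FPKM against 762 and 800 (-1.11, adjusted p = 1.32e-05). Both shared an order in which each SMG sample was above each placode sample by more than the spread within the groups. Rps13, another small subunit gene, had 261 and 230 FPKM against 445 and 414 (-0.81, adjusted p = 1.51e-04).
Rps26, which contacts mRNA at the exit of the small subunit, was higher in the placodes. It had 460 and 422 FPKM there and 204 and 236 in the SMGs. Its log2 fold change was 1.00 (SE 0.09, adjusted p = 8.44e-05), and it kept its call with each of the 4 samples left out in turn. Rps2, near the mRNA entry of the small subunit, had 521 and 467 FPKM in the placodes but 40.4 and 270 in the SMGs. On the log2 scale, the SMG samples of Rps2 were further apart than SMG sample 2 was from the placodes. Its log2 fold change of 2.22 (SE 0.78, adjusted p = 0.0399) became 0.86 without SMG sample 1 and 3.58 without SMG sample 2, and it was not called without placode sample 1 (2.14) or 2 (2.30). Rpl26, near the exit of the peptide tunnel, had 814 and 749 FPKM in the placodes and 189 and 596 in the SMGs. The groups did not overlap, but the gene was not called (log2 fold change 1.22, SE 0.48, adjusted p = 0.0576). Without SMG sample 1 or 2 its log2 fold change was 0.39 or 2.04, and it was then called.

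Samples of the same group were further apart in ribosomal protein genes than in other abundant genes, a contrast that is described and was not tested. Between placode samples 1 and 2, the median absolute difference in log2(FPKM + 1) was 0.106 over the 83 genes, beside 0.0485 over 415 other features with a mean of at least 100 FPKM. Sample 1 was the higher for 74 of the 83 genes, beside 225 of the 415 other abundant features and 5975 of all 13193 tested features. Between the SMG samples, the median was 0.113, beside 0.0584. A difference of at least 0.5 on the log2 scale was found for 11 of the 83 genes (13.3%) in the SMGs and for 2.65% of the other abundant features. Rps2, Rpl26, Rps27rt and Rpl21 differed by at least 1 between the SMG samples, and each was higher in SMG sample 2. In the placodes, Rps27rt alone differed by that much, with more in sample 1.
These differences were also set beside coding length. Among the 45 standard genes with under 500 coding bases, 41 were higher in placode sample 1 than in sample 2, and 13 were higher in SMG sample 1 than in sample 2. For the 32 longer genes these numbers were 28 and 13. The median log2 fold change was 0.10 for the short genes (27 of 45 above 0) and -0.12 for the long genes (14 of 32 above 0). Spearman's rho with coding length was -0.309 for the placode difference, 0.345 for the SMG difference and -0.280 for the log2 fold change, each across 77 genes of the same libraries. Pearson's r with log2 coding length was -0.223, 0.0758 and -0.164, so the relation of the SMG difference with length was seen in ranks and hardly in r. The part of transcript length in the differences between the groups was not tested.

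**Figure D4:**
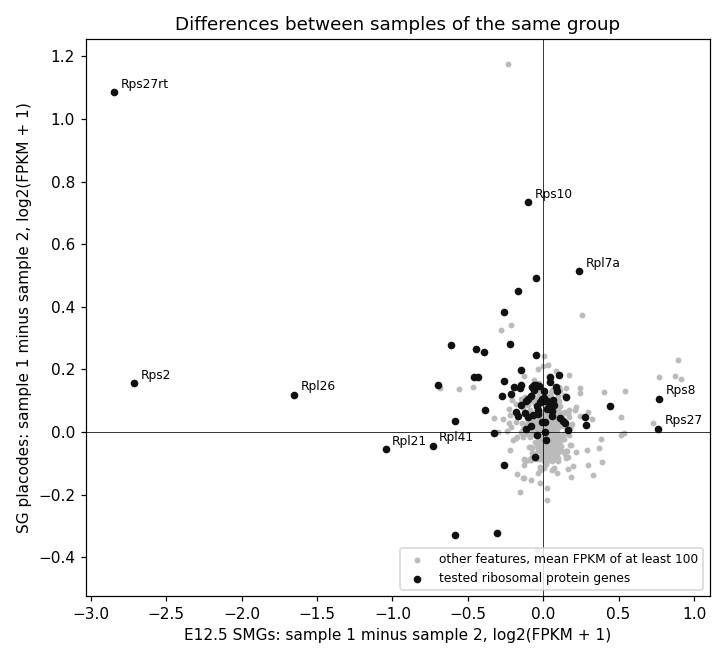
Difference between samples 1 and 2 in log2(FPKM + 1), for the SMGs (horizontal) and the placodes (vertical), of the 83 tested ribosomal protein genes (black) and of 415 other features with a mean of at least 100 FPKM (grey). The grey points cluster at 0 on both axes, the black points lie mostly above 0 on the vertical axis (74 of 83), and Rps27rt, Rps2, Rpl26 and Rpl21 extend to the left by more than 1.

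In the P stalk and the 5S particle, not all genes were called. The called genes of the P stalk were both lower. The P stalk of the large subunit, which recruits elongation factors, is made of the proteins of Rplp0, Rplp1 and Rplp2. Rplp0, its base, had 413 and 403 FPKM in the placodes and 799 and 1201 in the SMGs (log2 fold change -1.26, SE 0.18, adjusted p = 8.77e-04). Rplp1, with the values given above, was also lower (-0.59, SE 0.07, adjusted p = 5.11e-04). Rplp2 had 310 and 261 FPKM against 289 and 299 (-0.05, SE 0.09, adjusted p = 0.645), so that its groups overlapped and its direction turned under TPM scaling (0.01). The 3 genes thus differed by unequal amounts, though the differences between them were not tested.
The proteins of Rpl5 and Rpl11 form a particle with 5S ribosomal RNA that can bind Mdm2, the main inhibitor of p53. Rpl5 had 481 and 453 FPKM in the placodes and 385 and 367 in the SMGs and was called higher (0.31, SE 0.06, adjusted p = 0.00426), but not without placode sample 1 (0.27). Rpl11 had 554 and 536 FPKM against 572 and 613 and was not called (-0.12, SE 0.07, adjusted p = 0.148). Mdm2 itself had 25.7 and 25.6 FPKM against 20.8 and 20.4, and Trp53, which encodes p53, had 39.1 and 39.6 against 62.8 and 61.6. Both were called, in opposite directions (0.30 and -0.65).
Rpsa, a small subunit gene whose product is also known as the laminin receptor, had 574 and 571 FPKM in the placodes and 832 and 742 in the SMGs. It was called lower (-0.46, SE 0.08, adjusted p = 0.00199), but not without placode sample 1 (-0.46) or 2 (-0.45). Rps6, the main substrate of the S6 kinases, had 869 and 784 FPKM against 785 and 799. These values overlapped, and Rps6 was not called (0.06, SE 0.08, adjusted p = 0.509). Rps24 was called higher (0.28, SE 0.07, adjusted p = 0.0120), but not without placode sample 1 (0.27) or 2 (0.29) or SMG sample 1 (0.24). Rpl34 was called lower (-0.73, SE 0.12, adjusted p = 0.00158), and Rpl29 was not called (-0.32, SE 0.16, adjusted p = 0.115).

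Of the standard genes, 4 are X-linked, and they did not share a direction. Among them 2 were called (50%), beside 76.2% of all tested features. Rpl10 had 448 and 433 FPKM in the placodes and 658 and 632 in the SMGs and was called lower (-0.55, SE 0.06, adjusted p = 2.84e-04). Rps4x had 686 and 651 FPKM against 789 and 777 and was also called lower (-0.23, SE 0.07, adjusted p = 0.0196), but it was not called when any 1 sample was left out (-0.26 to -0.19). Rpl36a and Rpl39 were not called. Rpl36a had 245 and 222 FPKM in the placodes and 242 and 255 in the SMGs (-0.09, adjusted p = 0.240). Rpl39 had 193 and 161 FPKM against 115 and 158 (0.38, adjusted p = 0.0646), and without SMG sample 2 it was called (0.61).

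Paralogs of the subunit genes were low or followed no common direction. Rpl3l, the paralog of Rpl3 known from muscle, was listed at 0 in all 4 samples. Rpl10l, a retrocopy of Rpl10 known from testis, had 0.201 and 0.0550 FPKM in the placodes and 0 in either SMG sample. Rpl39l, a paralog of Rpl39 also known from testis, had 0.804 and 0.780 FPKM in the placodes and 0.194 and 0.576 in the SMGs. These 3 genes were below the minimum of 1 FPKM and were not tested, and each stood far below its parent gene on the same length-scaled measure.
The other 6 were tested, and 1 of them was called (16.7%), beside 76.2% of all tested features. Rpl7l1, a paralog of Rpl7 with a role in ribosome assembly, had 36.2 and 36.9 FPKM in the placodes and 48.4 and 47.9 in the SMGs (-0.39, SE 0.05, adjusted p = 3.97e-04). Rpl7 had 681 and 635 FPKM against 740 and 742 and was not called (-0.17, adjusted p = 0.0579). Rpl22l1 had 91.7 and 82.5 FPKM in the placodes and 98.2 and 160 in the SMGs (-0.52, SE 0.21, adjusted p = 0.0613), and without SMG sample 1 it was called (-0.87). Its parent Rpl22 was listed the other way, with 181 and 175 FPKM against 162 and 133. Rpl22 was called higher (0.28, SE 0.09, adjusted p = 0.0335), but not without SMG sample 2 (0.14) or placode sample 1 (0.26) or 2 (0.30). The difference between the pair was not tested.
Rpl36al, a close relative of Rpl36a, had 105 and 91.2 FPKM in the placodes and 101 and 113 in the SMGs (-0.13, adjusted p = 0.210). Rps27l, a paralog of Rps27 that is a known p53 target, had 70.8 and 58.1 FPKM against 55.9 and 65.3 (0.08, adjusted p = 0.516). For both, the samples of the groups overlapped. Rps19bp1, a binding partner of Rps19 rather than a subunit, had 23.7 and 23.2 FPKM against 24.1 and 21.9 (0.03, adjusted p = 0.704). Rps19 itself had 568 and 512 FPKM against 467 and 483 (0.18, adjusted p = 0.0577), and Rps23 had 384 and 350 FPKM against 350 and 365 (0.04, adjusted p = 0.638). Neither was called, and only those of Rps19 did not overlap.
The rule by name misses the ribosomal genes Fau and Rack1, and both were called higher in the placodes. Fau, which encodes a fusion with the small subunit protein S30, had 818 and 741 FPKM in the placodes and 553 and 586 in the SMGs (0.45, SE 0.08, adjusted p = 0.00206). Rack1, a scaffold protein on the small subunit, had 869 and 822 FPKM against 746 and 721 (0.20, SE 0.07, adjusted p = 0.0348). Rack1 lost its call without any 1 sample (0.16 to 0.25), while Fau was called in every such fit.

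The start of the transcripts was examined for TOP tracts, since these are the element that the mRNAs of the list are known to share. A tract was counted when a run of at least 5 bases of C or T that opened with C began within 3 bases of an annotated RefSeq start (GRCm38.p6). Of the 66 genes with a RefSeq promoter sequence, 26 (39.4%) had such a run, beside 13.5% of all 27025 genes and 9 of 69 mitochondrial ribosomal protein genes (13.0%). Such a run was also held by 5 of 13 translation factors and related genes with TOP mRNAs (38.5%), by 4 of 11 regulators of ribosomal protein synthesis (36.4%) and by 2 of 8 genes of the S6 kinase family. The 30 bases around the start of 6 genes are shown, 10 before it and 20 from it on, on the transcript strand and with the tract in capitals. They are examples of genes with a tract and a mean of at least 100 FPKM, which other genes of the list also met, and they include Rps18 and Rps24.
Rpl13a (chr7:45128726-45128755, minus strand): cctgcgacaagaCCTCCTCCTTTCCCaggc
Rpl15 (chr14:18270967-18270996, minus strand): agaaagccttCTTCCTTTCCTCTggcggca
Rpl35 (chr2:39005112-39005141, minus strand): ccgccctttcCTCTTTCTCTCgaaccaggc
Rps6 (chr4:86857348-86857377, minus strand): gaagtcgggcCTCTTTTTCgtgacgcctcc
Rps18 (chr17:33955646-33955675, minus strand): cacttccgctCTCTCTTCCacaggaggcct
Rps24 (chr14:24490668-24490697, plus strand): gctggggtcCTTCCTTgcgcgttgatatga
The tracts of these genes are 7 to 14 bases long, while those of all genes of the list with a tract extend from 5 (as in Rplp2) to 17 (Rpl27a). Among the genes with a fold of at least 2, Rps18 has a tract at its annotated start, while Rpl30, Rpl3 and Rpl21 were not among the starts described here and Rps2, Rps3a1, Rplp0 and Rps26 show no such run in the window searched. A match to these letters is a description of the annotated start, and the start used in these samples was not measured.

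Gene lists around the ribosome were set beside the subunit genes. Ribosome assembly factors, which act in the making and maturation of the subunits, were mostly called lower. Of 29 tested, 3 were called higher and 19 lower, with a median log2 fold change of -0.43. The 22 calls are 75.9% of the list, near the 76.2% of all tested features, of which 35.7% were called higher and 40.4% lower. Sbds had 22.4 and 22.8 FPKM in the placodes and 18.2 and 17.8 in the SMGs (0.32), and Utp20 had 3.78 and 4.36 against 10.1 and 10.3 (-1.14). Of 12 genes for RNA polymerase I and its factors, 2 were called higher and 6 lower (66.7% called, median -0.27). Rrn3, an initiation factor of this polymerase, had 46.4 and 47.4 FPKM against 19.2 and 19.3 (1.25), and Taf1d had 21.7 and 21.6 against 39.2 and 44.1 (-0.91). The medians of both lists were further below 0 than those of the large and small subunit genes, and this difference was not tested.
The medians of translation factors and of mitochondrial ribosomal protein genes lay near the -0.05 of all features. Of 18 translation factors and related genes with TOP mRNAs, 2 were called higher and 8 lower (55.6% called, median -0.08), between Eif3h with 277 and 262 FPKM against 208 and 194 (0.42) and Eef1d with 44.9 and 38.7 against 88.1 and 71.5 (-0.91). Of 78 mitochondrial ribosomal protein genes, 17 were called higher and 25 lower (53.8% called, median -0.04). They extended from Mrps12, with 14.8 and 11.8 FPKM against 24.3 and 25.5 (-0.86), to Mrps10, with 31.1 and 25.9 against 15.0 and 16.8 (0.80), and none of them reached a fold of 2 on the log2(FPKM + 1) scale. Mrps25, with 3.52 and 3.65 FPKM against 7.04 and 7.53 (-0.85), had a ratio of mean FPKM of 0.493.
Among 14 regulators of ribosomal protein synthesis, 7 were called higher and 6 lower (92.9% called, median 0.20). The transcription factor genes Mycn and Myc, both known as activators of ribosome production, differed in opposite directions. Mycn had 32.1 and 31.1 FPKM in the placodes and 3.30 and 3.77 in the SMGs (2.85, adjusted p = 8.06e-07), and Myc had 7.57 and 9.47 against 22.1 and 20.3 (-1.23, adjusted p = 9.53e-05). Mycl, of the same family, was called higher like Mycn, with 63.2 and 63.3 FPKM against 13.0 and 10.9 (2.31, limma adjusted p = 2.02e-06). Larp1, which binds TOP mRNAs, had 24.5 and 25.5 FPKM against 22.9 and 23.8 and was the only one not called (0.10, adjusted p = 0.161). Of 10 genes of the S6 kinase family, 3 were called higher and 4 lower (70% called, median -0.11), from Rps6kl1 with 7.17 and 6.78 FPKM against 0.282 and 0.377 (2.58) to Rps6ka4 with 3.31 and 3.69 against 11.1 and 9.87 (-1.35). Rps7, Rps12, the copies, the genes shown for their TOP tracts, Mdm2, Trp53, Mrps25, Mycl and Larp1 were picked out after their values were seen.

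**Figure D5:**
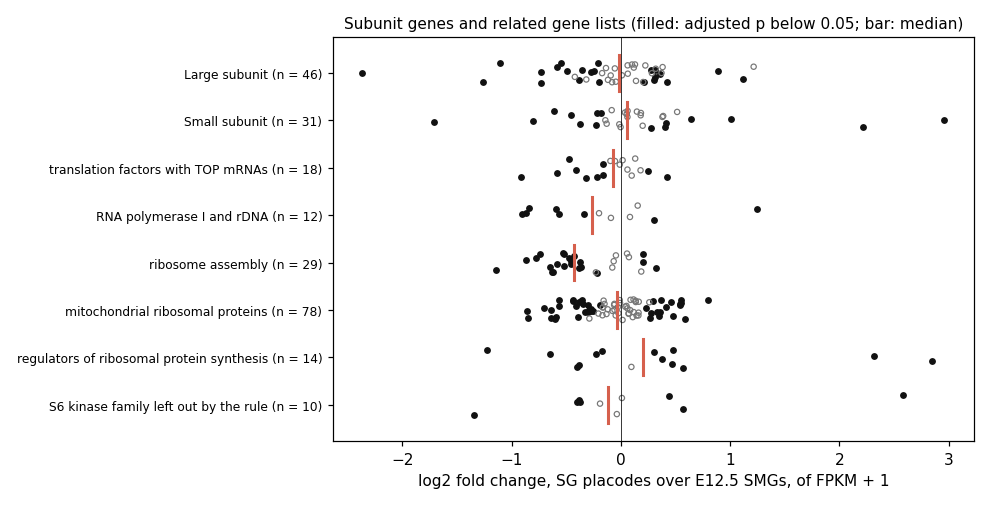
Log2 fold change, placodes over SMGs, of each tested gene (points, filled where the limma adjusted p is below 0.05) in the subunit genes and in 6 related lists, with the median of each as a bar. The medians of the large and small subunit genes lie at -0.02 and 0.06, and that of ribosome assembly factors at -0.43.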

How the data were processed

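Members were selected by symbol from the table, which holds 22036 Ensembl genes and 2735 assembled loci, and all 86 were found in GENCODE M21 (GRCm38) under the same symbol. The members and lists were chosen with earlier results of these data known. The authors mapped paired-end reads with HISAT2 and deposited FPKM values. The submitters' processing notes name GRCm38 (mouse) and GRCh38 (human) with no role for either, and the listed Ensembl identifiers of the members are those of mouse. The version of HISAT2, the program that computed FPKM, its annotation and the strandedness are not given in the sources used here.

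FPKM was transformed as log2(FPKM + 1), and the 13193 features with a mean no lower than 1 entered a limma fit (version 3.58.1, R 4.3.3; lmFit, eBayes with trend) that held the group alone. Tests were two-sided with Benjamini-Hochberg adjustment. Shares were compared by exact permutation. Copies were found with BLAST 2.17.0, promoters were taken from RefSeq, and figures were drawn with Python 3.11.15. The alternatives are listed with their effect in the closing section. Named genes were the members outside the standard list with their parents, the 5 highest and the 5 lowest log2 fold changes, the 2 most and the 2 least abundant, the P stalk, 5S particle, X-linked and 2 further members (Rpsa and Rps6), subunit genes outside the rule, and the extremes of each related list. Any others were named after their values were seen, and some items are not reported here. None of 7 host genes of small nucleolar RNA matched by symbol, and they were not analysed here.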

Additional observations from a re-analysis of the deposited data

How the results depend on the processing

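The 16 genes called higher in the placodes became 26 under TPM scaling, 25 under median-ratio scaling, 25 with the replicate number as a block and 9 without a minimum FPKM, and ranged from 3 to 20 when a sample was left out. The 23 called lower ranged from 15 to 22 when a sample was left out. The median log2 fold change of the tested genes, 0.03, ranged from -0.07 to 0.09. The 10049 features called over the whole table became 11894 without a minimum FPKM and ranged from 8501 to 9087 when a sample was left out. The share of the summed FPKM, 0.24 points higher in the placodes, was 0.25 points lower (-0.25) relative to features other than mitochondrial, hemoglobin and ribosomal protein genes, and ranged from -0.15 to 0.64 when a sample was left out. The cause of these shifts was not tested.
For the 49 named genes that were tested, 830 values under alternatives gave 755 with the same direction and side of the threshold, 47 that lost a call, 18 that gained one and 10 that turned in direction, none of them called. Those were Rplp2 under TPM (0.0144) and median-ratio scaling (0.0127), and, when a sample was left out, Rplp2 (from -0.171 to 0.0770), Rps19bp1 (-0.0370 to 0.0940), Rps23 (-0.0307 to 0.104), Rps27l (-0.0564 to 0.225), Rps27rt (-1.74 to 1.11) and Rps6 (-0.0144 to 0.133).
The samples of both groups are numbered 1 and 2. With the number as a block, 25 genes were called higher and 25 lower, and 10043 features were called in all. Deviations of same-numbered samples from their group means correlated with r = -0.03 over all tested features and r = -0.33 over the members, and nothing in the sources ties a number to a shared batch, so the samples share only a number. Leaving out a sample leaves 1 in a group, which is assumed to vary like the other group. The other alternatives were a pseudocount of 0.1 or 0.001, quantile normalization, a minimum of 5 FPKM, leaving out the assembled loci, and eBayes without trend or with robust estimation. Summing each gene with its listed copies, added after the data were seen, gave 15 genes higher and 23 lower of 82 tested. With 2 samples per group and no counts, differences in genes that share sequence with copies cannot be resolved further here.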
